A study of Rattus norvegicus with 8 samples.

Results

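Onecut1, the gene of the transcription factor Hnf6, and LOC102549203, a long non-coding RNA gene that lies beside it on rat chromosome 8, were followed over 8 samples of hepatocytic cells captured from rat livers by laser microdissection (LMD). The genes were selected on their measured values. They hold 3 of the 5 probes that limma called higher in small hepatocyte-like progenitor cells (SHPCs) of livers given bone marrow-derived mesenchymal cells (BM-MCs) than in control SHPCs, where 0.0216% of 23111 tested probes were called higher and 0% lower. The number of such calls rested on single samples and on the fit. It was 0 without control replicate 1 or 2 or BM-MC replicate 1 or 2, 16 higher and 4 lower without BM-MC replicate 3, and 490 higher and 40 lower without control replicate 3. It was also 0 with the replicate number as a block or without the filter on dim signals, and 1 higher and 4 lower with slide set (4 arrays each) as a block. Without scaling it was 206 higher and 7 lower, and with an intensity trend in the variance 29 higher and 4 lower. Onecut1 and LOC102549203 are 2 of the 27109 genes and unnamed transcripts that the array names, with 4 of its 45598 probes, of which 3 passed the filter on dim signals. Their levels and differences are therefore given below as a description with no test, and so are those in mature hepatocytes (MHs), which are set against the same samples.

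All samples came from rats of the F344 strain whose livers had been treated with retrorsine, an alkaloid that blocks division of hepatocytes, in 2 injections, followed by partial hepatectomy (Ret/PH). SHPCs are clusters of small hepatocyte-like cells that expand in such livers. There were 3 samples of SHPC clusters from recipient control livers, which received no BM-MCs. A further 3 samples were SHPC clusters from recipient livers into which cultured BM-MCs had been injected through the spleen 2 weeks before. The remaining 2 samples were MHs, grouped by a label of cell type alone, which does not say whether their livers received BM-MCs. The labels give every animal as DPPIV+ whereas the methods give female DPPIV- recipients of cells from DPPIV+ male donors, and the samples were not tied to animals, so that the spread between samples may be technical and p-values may be too small. All the livers had received retrorsine and PH, and no sample stands for an untreated liver.

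One slide, scanned in 1 pass, held all 8 arrays. Between 57.0% and 61.5% of the spots of an array were well above background and 0 were saturated. The scanner file of control replicate 2 holds 20903 of 62976 features and none of the 4 probes described here, so its values were taken from the deposited table, which holds the same signals. The MHs and control replicates 1 and 2 shared the first set of 4 arrays, and control replicate 3 shared the second set with the BM-MC samples, so that set and transplantation largely coincide. Summed levels of 8 hepatocyte markers, in units of each array's 75th percentile, ran from 850 to 888 in MHs, from 825 to 972 in control SHPCs and from 767 to 928 in SHPCs with BM-MCs. Hepatocyte markers were thus abundant in every sample and their sums overlapped between groups, although single markers went opposite ways, with Apoa1, an apolipoprotein, lower in both MHs than in every SHPC sample and the cytochrome Cyp2e1 higher in both MHs than in every control.

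Onecut1 encodes a DNA-binding protein with one cut domain and a homeodomain. It is one of the liver-enriched transcription factors that bind each other's genes, it is needed for the development of the bile ducts, the gallbladder and the endocrine pancreas, and in the adult liver it acts on genes of glucose and bile acid metabolism. Its transcription in rat liver is known to respond to growth hormone. LOC102549203 is annotated in RefSeq as a long non-coding RNA, and no role is known for it here.

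The array reads each gene with a pair of probes, each with 1 spot per array, and the sequences of the 3 probes below show what was measured. In the array's annotation all 4 probes match the + strand of chromosome 8. The array header names rn4, and whether the coordinates are of that build is not stated. The Onecut1 coding-end probe, at 79671988 to 79672047, lies in an exon and ends with the stop codon of the coding sequence, after 19 sense codons, and its stop is in capitals. The tested LOC102549203 probe, at 79634548 to 79634607, lies 37.4 kb upstream of it, and the dim one, at 79643582 to 79643641, lies 28.4 kb upstream of it.
Onecut1 coding-end probe: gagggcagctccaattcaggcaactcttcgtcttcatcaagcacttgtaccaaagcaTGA
LOC102549203 tested probe: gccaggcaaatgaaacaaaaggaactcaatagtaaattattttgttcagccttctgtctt
LOC102549203 dim probe: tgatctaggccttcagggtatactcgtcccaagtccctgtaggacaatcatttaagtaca
A further Onecut1 probe, called distal here, lies 6.68 kb downstream of the coding-end probe at 79678671 to 79678730. It is assigned to 1 further Onecut1 transcript model. Of the 4 transcript accessions given for the tested LOC102549203 probe, 1 is in the current RefSeq table, and of the 2 of the dim probe 0 are.

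At the coding-end probe, Onecut1 was higher in all 3 samples of SHPCs with BM-MCs than in all other samples. Levels are given as log2 of the signal over the 75th percentile of the signals on that array. They were 2.14, 1.97 and 2.31 in BM-MC replicates 1 to 3, -0.16, -0.20 and -0.09 in control replicates 1 to 3, and 0.53 and 0.17 in MH replicates 1 and 2. The 3 control samples lay close together and the BM-MC samples stood clear of them. The mean of the controls was -0.15 ± 0.056 (SD, n = 3) and that of the BM-MC samples 2.14 ± 0.17 (SD, n = 3), a difference of 2.29 (standard error 0.10) or 4.89-fold. The lowest BM-MC sample was 4.16-fold above the highest control. In samples captured from tissue, more cells that express a gene and more RNA per cell cannot be told apart.

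The distal probe separated the groups in the same way. Its level was 0.10, -0.06 and 0.40 in the BM-MC samples and -2.03, -2.0 and -2.01 in the controls, and -1.60 and -1.51 in the MHs. The difference between SHPCs with and without BM-MCs was 2.16 (standard error 0.14) or 4.46-fold, from 0.15 ± 0.24 (SD, n = 3) to -2.01 ± 0.016 (SD, n = 3), and the groups did not overlap. Both Onecut1 probes thus placed the BM-MC samples highest, the MHs next and the control SHPCs lowest.

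LOC102549203 was likewise higher in every BM-MC sample than in every other sample. At its tested probe, the level was 0.50, 0.24 and 0.60 in the BM-MC samples, -1.99, -1.70 and -1.66 in the controls, and -2.76 and -2.0 in the MHs. The BM-MC mean of 0.45 ± 0.19 (SD, n = 3) exceeded the control mean of -1.78 ± 0.18 (SD, n = 3) by 2.23 (standard error 0.15), or 4.69-fold. Unlike Onecut1, LOC102549203 had its lowest level in the MHs.

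**Figure D1:**
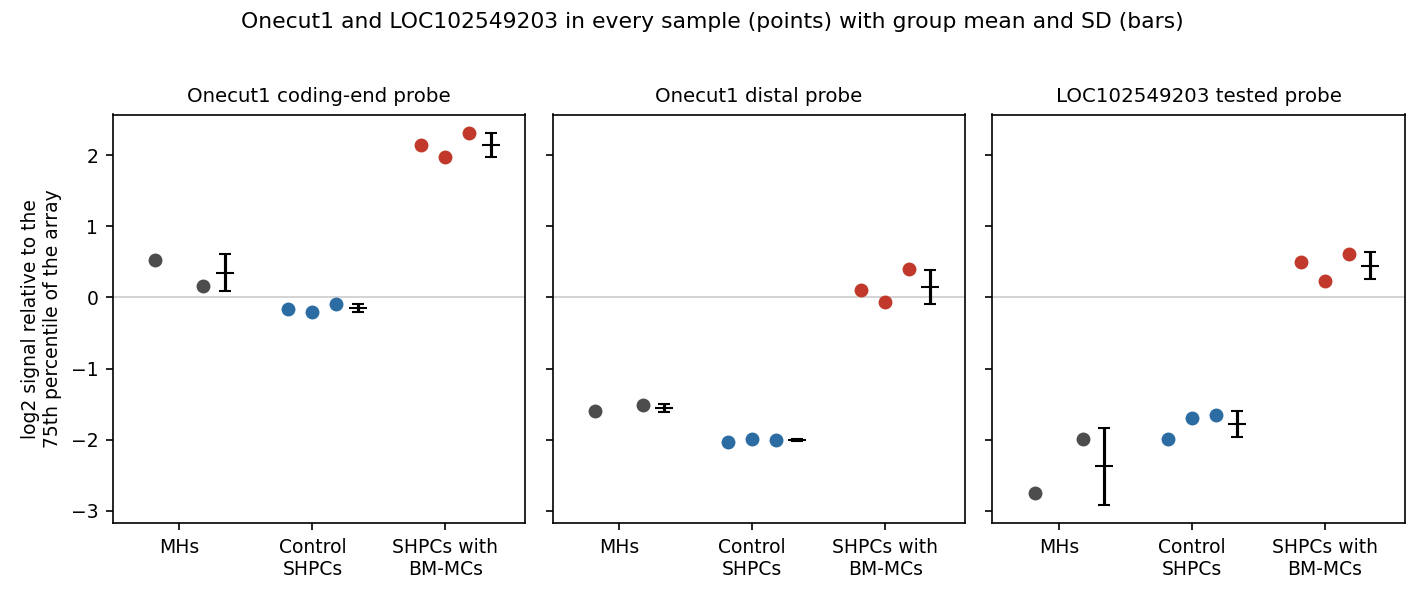
Level of the 3 tested probes in every sample, as log2 signal relative to the 75th percentile of the array, by group. Points are samples and the bars beside them give the group mean and SD. The BM-MC samples are highest in each panel, at 1.97 to 2.31 for the Onecut1 coding-end probe, and the MHs lie above the controls for Onecut1 but not for LOC102549203.

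The signals as deposited, before any scaling, showed the same separation. At the coding-end probe they were 7669, 5620 and 6776 in BM-MC replicates 1 to 3, against 1375, 1517 and 1180 in the controls and 2155 and 1900 in the MHs. At the LOC102549203 probe they were 2454, 1688 and 2076 with BM-MCs, 385, 536 and 398 in the controls and 221 and 425 in the MHs. The BM-MC samples thus did not overlap any other sample with or without scaling, although the highest of them was replicate 1 before scaling and replicate 3 after it. Of 22969 probes measured in all 8 samples, 13.0% had every BM-MC sample above every control and 16.0% had every BM-MC sample above both MHs. The 3 tested probes of the 2 genes did both, which the selection used for the first.

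Position on the slide was taken into account as the set of 4 arrays. Among the controls, replicate 3 alone shared a set with the BM-MC samples, and against it the BM-MC samples were higher by 2.23 at the coding-end probe, 2.15 at the distal probe and 2.10 at the LOC102549203 probe. With each replicate left out in turn, the difference from the controls lay between 2.20 and 2.38 at the coding-end probe, between 2.03 and 2.26 at the distal probe and between 2.12 and 2.33 at the LOC102549203 probe.

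Between MHs and control SHPCs, the mean differences of the 2 genes had opposite signs. Onecut1 was higher in both MHs than in every control at both probes, by 0.50 (standard error 0.18) or 1.41-fold at the coding-end probe and by 0.45 (standard error 0.043) or 1.37-fold at the distal probe. At the coding-end probe the gap between the nearest samples of the 2 groups was 0.25, and the SD of the 2 MHs was 0.26. At the distal probe the gap was 0.40, above the SD of 0.060 in the MHs and of 0.016 in the controls. Over all probes, 22.7% had both MHs above every control, so such a separation was common.

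LOC102549203 had a lower mean in the MHs than in the controls, with a difference of -0.59 (standard error 0.40), or 1.51-fold. MH replicate 2 lay only 0.0022 below control replicate 1, and MH replicate 1 lay far below both. The difference was close in size to the SD of the MHs (0.54, n = 2). Without MH replicate 1 it was -0.21 and without MH replicate 2 it was -0.97. Both MHs lay below every control for 18.7% of all probes. Within the first set of arrays, against control replicates 1 and 2 alone, the MH difference was 0.53 at the coding-end probe, 0.45 at the distal probe and -0.53 at the LOC102549203 probe.

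Against the MHs, SHPCs with BM-MCs were higher by 1.79 (standard error 0.21) or 3.47-fold at the coding-end probe and by 1.70 (standard error 0.14) or 3.26-fold at the distal probe. The corresponding difference of LOC102549203 was 2.82 (standard error 0.40), or 7.07-fold. In order of level, the samples of neighbouring groups were apart by more than the SD of either group at both steps for the distal probe. For the coding-end probe and LOC102549203 this held for the step up to the BM-MC samples, and MHs and controls were apart by less than the SD of the MHs.

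Set against the mean of the 3 controls, the 3 probes changed by similar amounts in each BM-MC sample. BM-MC replicate 1 was above that mean by 2.29 at the coding-end probe, 2.11 at the distal probe and 2.28 at the LOC102549203 probe. BM-MC replicate 2 was above it by 2.12, 1.95 and 2.02, and BM-MC replicate 3 by 2.46, 2.41 and 2.39, in the same order of probes. The changes of Onecut1 at its coding-end probe and of LOC102549203 differed by 0.0089, 0.10 and 0.072 in BM-MC replicates 1 to 3. In the MHs they differed by 1.65 and 0.53. The ratio of the 2 genes in the BM-MC samples was thus close to that in the controls, and in the MHs it was not, a description that rests on samples the selection used.

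**Figure D2:**
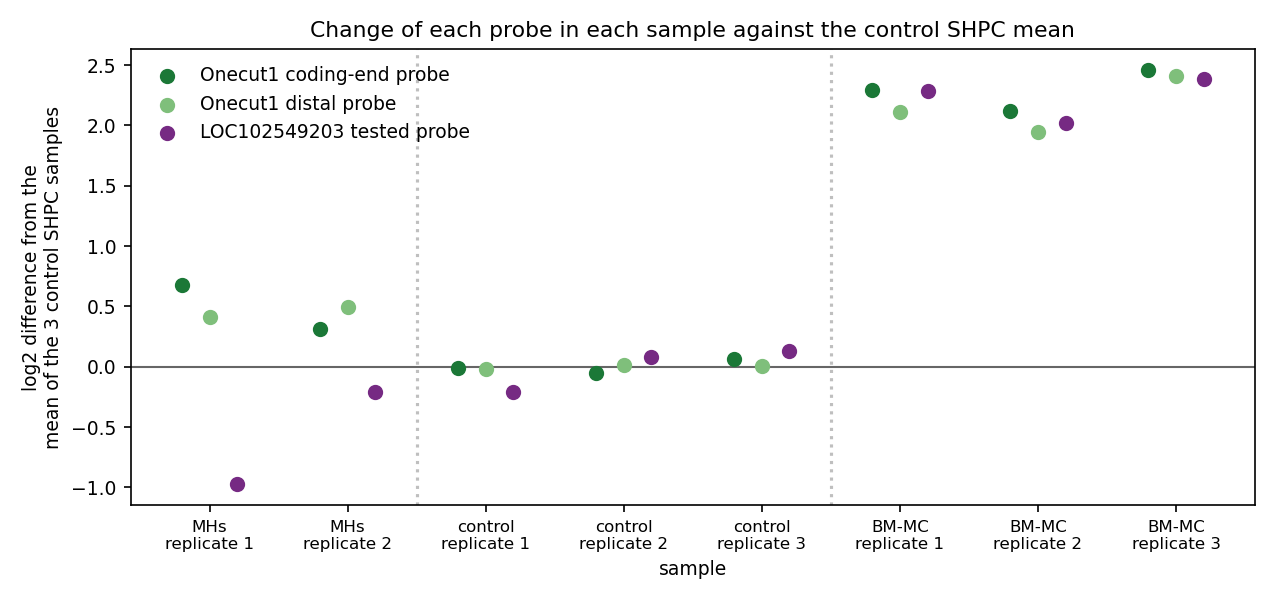
Change of the 3 tested probes in each of the 8 samples, as log2 difference from the mean of the 3 control SHPC samples. The 3 probes lie together in the BM-MC samples, between 1.95 and 2.46, and apart in the MHs, where the LOC102549203 probe is at -0.97 and -0.21.

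The dim LOC102549203 probe was not well above background on any of the 7 arrays with complete marks, where its processed signal lay between 4.19 and 5.87. In control replicate 2 the deposited table gives it a signal of 71.2, and the scanner file of that sample does not reach its spot, so that no mark says whether this was above background. No fold change is given for it.

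Other tested probes around Onecut1 gave smaller differences. Within 500 kb of the coding-end probe in the array's coordinates, 11 probes were tested, of which 3 are those of the 2 genes. Of the other 8, limma called 0 at the adjusted threshold between SHPCs with and without BM-MCs, 2 had an unadjusted p under 0.05, beside 16.6% of all probes tested, and their differences ran from -0.37 to 0.54. Those that lie closest to LOC102549203 are read from the opposite strand. An unnamed transcript 37.7 kb upstream of the Onecut1 probe had a mean of -1.40 ± 0.036 (SD, n = 3) in controls and of -1.77 ± 0.16 (SD, n = 3) with BM-MCs, a difference of -0.37 (adjusted p = 0.243 from limma). LOC102549114, a further predicted transcript, 32.8 kb upstream, differed by 0.26 (adjusted p = 0.304 from limma). The tested LOC102549203 probe, at 2.23, lies between them on the chromosome.

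Genes without a probe were passed over in taking the 5 nearest genes on either side in the RefSeq gene table. Of those taken, 5 were tested and limma called 0 in each comparison (0, 1 and 0 at an unadjusted p under 0.05 for BM-MCs against controls, MHs against controls and BM-MCs against MHs). Upstream, Rsl24d1, a factor of the assembly of the large ribosomal subunit, differed by -0.38 (adjusted p = 0.308 from limma), and Wdr72, LOC102554551, Unc13c and Khdc3 were not tested because their signals were dim. Downstream, Atosa differed by 0.54 (adjusted p = 0.375 from limma), and Arpp19, an inhibitor of protein phosphatase in mitosis, by -0.08 (adjusted p = 0.803 from limma), with its probes of opposite sign. Myo5a, a myosin motor, and Gnb5, a G protein beta subunit, differed by 0.03 and 0.0014, and Myo5c was not tested. The median of the 5 tested neighbours was 0.0014, beside 0.018 over all 23111 tested probes.

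**Figure D3:**
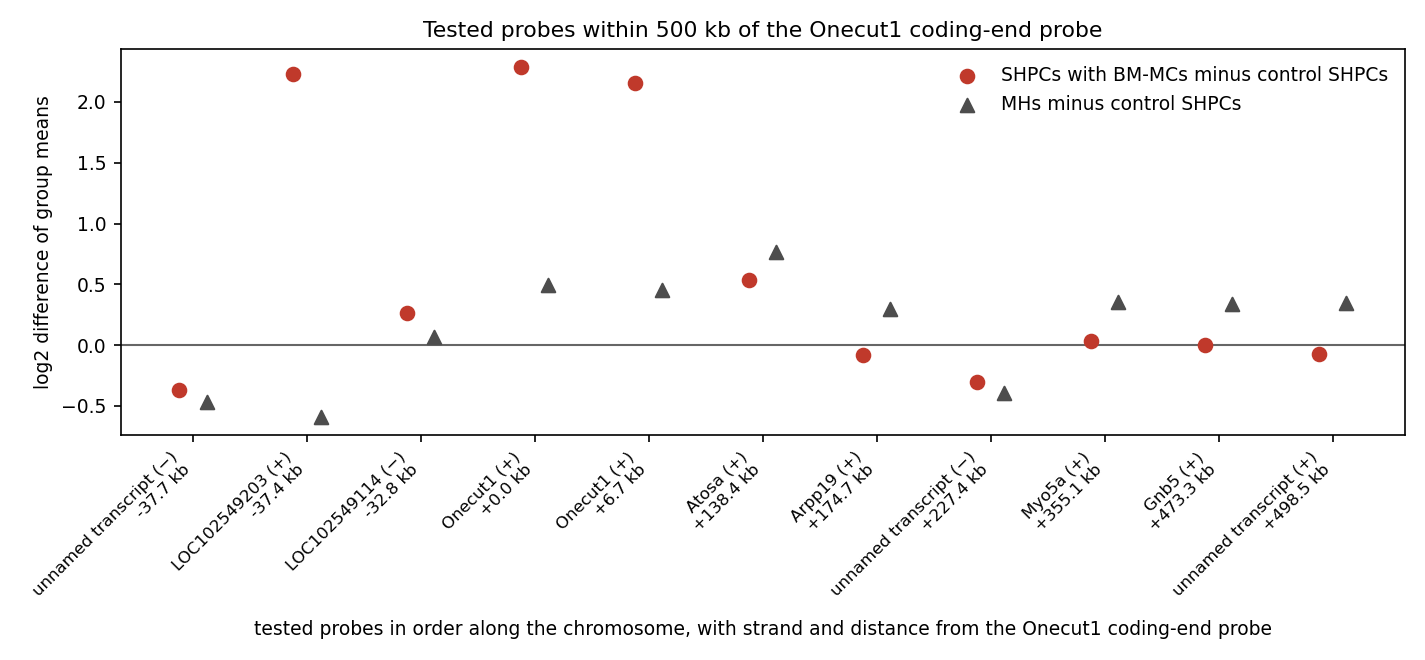
Difference of group means (log2) for the 11 tested probes within 500 kb of the Onecut1 coding-end probe, in order along the chromosome, with strand and distance in kb on the horizontal axis. Circles compare SHPCs with BM-MCs and control SHPCs and triangles MHs and control SHPCs. The probes of the 2 genes lie above 2 in the first comparison where the other 8 lie between -0.37 and 0.54.

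RefSeq's promoter table for build GRCr8 holds LOC102549203, with 2 overlapping windows, and the first is shown because the transcript is, with Onecut1, among those selected as higher with BM-MCs. Capitals mark the last 50 bases, from the transcript's start onwards.
LOC102549203 promoter, chr8:84465999-84466298, + strand: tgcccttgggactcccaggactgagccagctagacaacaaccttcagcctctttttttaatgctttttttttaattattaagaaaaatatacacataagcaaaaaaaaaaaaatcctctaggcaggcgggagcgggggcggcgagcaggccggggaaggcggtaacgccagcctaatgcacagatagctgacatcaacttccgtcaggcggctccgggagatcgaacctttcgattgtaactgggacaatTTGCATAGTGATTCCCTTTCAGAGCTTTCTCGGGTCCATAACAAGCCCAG
The window had a GC content of 48.3%, against a median of 51.7% over 33469 promoter windows of the same length, and 13 CG dinucleotides against a median of 7. Searched on both strands, neither window held ATTGAT, the core bound by one cut factors, which 8.06% of all windows held, nor TTCNNNGAA, the palindrome of STAT factors, which 8.87% held, nor TATAAA, which 14.2% held. These letters are absent from the windows, which says nothing of binding elsewhere.

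Genes around Onecut1 in its family and network were compared next. Of 61 listed genes other than the 2 selected ones, 53 were tested. In the comparison of SHPCs with and without BM-MCs, limma called 0 of them, with 29 higher and a median of 0.03, beside 0.018 over all probes tested. In MHs against control SHPCs it again called 0, with a median of 0.01, where 0.216% of all probes were called higher and 0.917% lower. Against MHs, 1 listed gene was called higher with BM-MCs and 0 lower, where 0.320% of all probes were called higher and 0.0173% lower. These background counts were not stable. The count of 74 probes higher with BM-MCs than in MHs went to 0 without control replicate 1 or 2 or BM-MC replicate 2, and with either block. It also went to 0 without the filter, with the fit limited to the groups compared and by the methods' t-test after adjustment. Normexp with quantile normalization on 7 arrays gave 3, and quantile normalization alone gave 7. For MHs against controls, leaving out single samples gave between 4 and 214 probes higher and between 49 and 309 lower, in place of 50 and 212, with the fewest higher without control replicate 1 or 2, the fewest lower without MH replicate 1 and the most of both without BM-MC replicate 3. At an unadjusted p under 0.05, limma passed 10, 13 and 8 of the 53 in the 3 comparisons, beside 16.6%, 19.2% and 13.3% of all probes tested. The methods' t-test passed 9, 9 and 3 of the 53, beside 14.9%, 17.5% and 9.26% of all probes. Scaling to the median of each array shifts every difference between SHPCs with and without BM-MCs by -0.19, and 17 of the 53 were then higher with BM-MCs, with a median of -0.16, beside -0.17 over all probes. Under that scaling the medians in this comparison of the transcription factors, targets, growth hormone genes and chromosomal neighbours turned from above to below 0, so the counts of listed genes above and below 0 that follow hold for the 75th percentile only.

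Onecut2, the closest relative of Onecut1, had 4 probes on the array and Onecut3 had none. At its brightest probe Onecut2 was at 0.28, 0.31 and 0.53 in the BM-MC samples, -0.24, -0.36 and 0.01 in the controls and -0.12 and 0.23 in the MHs. The BM-MC samples lay above the controls by 0.57, which did not pass (adjusted p = 0.177 from limma). All 4 probes gave a difference of the same sign.

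The other liver-enriched transcription factors of the network gave small differences of both signs. Of 15 listed, all were tested, 0 were called, 8 were higher with BM-MCs, and the differences ran from -0.37 to 0.40 with a median of 0.04. Foxa1, a pioneer factor of endodermal enhancers, differed by 0.32 (adjusted p = 0.286 from limma). Gata4, a zinc finger factor of the early liver bud, differed by 0.40, and Cebpa, a factor of hepatocyte maturity, by 0.29 (adjusted p = 0.312 and 0.313 from limma). Hnf4a, which binds with Onecut1 at many liver genes, differed by -0.04 (adjusted p = 0.908 from limma), with its 3 probes not of one sign. In MHs against control SHPCs the lowest p-values were those of Nr1h4, the bile acid receptor, at 0.40, Prox1 at -0.47 and Gata4 at 0.26 (adjusted p = 0.308, 0.394 and 0.477 from limma), with the 2 probes of Prox1 of opposite sign.

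Hepatic genes described as bound or regulated by Onecut1 did not move together. Of 16 tested, 8 were higher and 8 lower with BM-MCs, with a median of 0.01. A1bg, the plasma protein alpha-1B-glycoprotein, had the lowest p-value. Its level was 2.22, 1.66 and 0.95 with BM-MCs, 3.13, 3.12 and 3.21 in the controls and 1.44 and 0.27 in the MHs. Against control SHPCs it differed by -1.54 with BM-MCs (adjusted p = 0.138 from limma) and by -2.29 in MHs (adjusted p = 0.0586 from limma), without overlap in either case and without passing. Prlr, the prolactin receptor, differed by -0.43 with BM-MCs (adjusted p = 0.242 from limma).

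Targets in metabolism gave differences of either sign. Pck1 and G6pc1, enzymes of gluconeogenesis, differed by 0.23 and 0.06 with BM-MCs, Slc2a2, the hepatocyte glucose transporter, by 0.14, and Pfkfb1, which sets the level of a regulator of glycolysis, by 0.21, with adjusted p from 0.419 to 0.801 from limma. Cyp7a1, the rate-limiting enzyme of bile acid synthesis, differed by 0.44 with BM-MCs and by 1.99 in MHs against control SHPCs (adjusted p = 0.737 and 0.179 from limma). Ttr, the thyroxine carrier and a classic Onecut1 target, differed by -0.10 (adjusted p = 0.735 from limma). Afp, the fetal counterpart of albumin, was at -0.07 with BM-MCs, at -0.69 in MHs against control SHPCs and at 0.63 in SHPCs with BM-MCs against MHs, and Ccnd1, a cyclin of G1, at 0.29, 0.86 and -0.56 in the same comparisons. None of these passed (adjusted p = 0.0874 for Afp and 0.0921 for Ccnd1 in MHs against control SHPCs, from limma).

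In growth hormone signalling, which acts upstream of Onecut1 in rat liver, Cish was the listed gene that passed a test. Cish encodes a feedback inhibitor induced by STAT5. Its level was -2.37, -2.44 and -1.89 in the BM-MC samples, -3.59, -3.69 and -3.62 in the controls and -4.18 and -3.75 in the MHs, and the BM-MC samples overlapped neither other group. Cish rose by 1.73 in SHPCs with BM-MCs against MHs (adjusted p = 0.0256 from limma). This call was lost without BM-MC replicate 2, and also with slide set or replicate number as a block. It was lost as well without control replicate 1 or 2, where 0 probes were called in either direction. The MHs and the BM-MC samples lie wholly in different sets. Over 18 alternatives, none of which left out a control, Cish passed in 8, with adjusted p from 0.00879 to 0.476. Against control SHPCs its difference of 1.40 did not pass (adjusted p = 0.0702 from limma), and it passed in 3 of 19 alternatives (adjusted p from 0.0271 to 0.321), one of them without control replicate 3.

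Socs2, a further STAT5-induced inhibitor, was at -2.88, -3.47 and -3.12 with BM-MCs and at -3.95, -4.55 and -5.29 in controls, where it was well above background on 1 of the 2 arrays with complete marks. Its difference of 1.44 did not pass (adjusted p = 0.169 from limma). Cyp2c11, the cytochrome P450 of the male liver, differed by 0.46 and Ghr, the growth hormone receptor, by 0.33 (adjusted p = 0.247 and 0.255 from limma), with the 3 probes of Ghr not of the same sign. Stat5a and Stat5b differed by 0.09 and -0.11, Jak2 by -0.09, and Igf1, the main hormonal product of this pathway, by 0.13. In all, 7 of 10 listed genes were higher with BM-MCs, with a median of 0.14. In MHs against control SHPCs the lowest p-values were those of Cyp2c11 at 0.59, Ghr at 0.50 and Igf1 at 0.43 (adjusted p = 0.143, 0.220 and 0.241 from limma).

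Genes of biliary fate, for which Onecut1 is needed in development, were not higher as a list. Of 13 listed, 11 were tested, 5 were higher and 6 lower with BM-MCs, and the median was -0.05. Notch1, a receptor of the biliary fate signal, differed by 0.49, Epcam, a surface protein of bile ducts and progenitors, by -0.43, and Sox9, a factor of duct cells, by 0.62 (adjusted p = 0.227, 0.275 and 0.362 from limma). In MHs 9 of the 11 were lower than in control SHPCs, with a median of -0.53, where 53.8% of all probes tested were higher. The lowest p-values were those of the Notch ligand Jag1 at -0.94, Notch1 at 0.54 and the duct keratin Krt19 at -1.76 (adjusted p = 0.155, 0.160 and 0.179 from limma). Krt19 and Cftr were each well above background on 1 of the 2 MH arrays, and Krt7 on 0 of the 2 control arrays with complete marks. The sizes of their differences are therefore uncertain.

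Against MHs, the lowest p-values in SHPCs with BM-MCs apart from Cish were, among transcription factors, those of Foxa2 at 0.33, Foxa1 at 0.26 and Prox1 at 0.44 (adjusted p = 0.484, 0.510 and 0.513 from limma), with probes of opposite sign for Foxa1 and Prox1. Among targets they were those of Afp at 0.63, Pck1 at 0.86 and Ccnd1 at -0.56 (adjusted p = 0.214, 0.306 and 0.306 from limma). Among biliary genes, 9 of 11 were higher with BM-MCs than in MHs, where 50.5% of all probes tested were. With scaling to the median 8 of 11 were, beside 6251 of 23111 probes. The lowest p-values were those of Jag1 at 0.95, Sox9 at 0.71 and Hes1, a Notch target, at 0.63 (adjusted p = 0.280, 0.387 and 0.407 from limma).

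**Figure D4:**
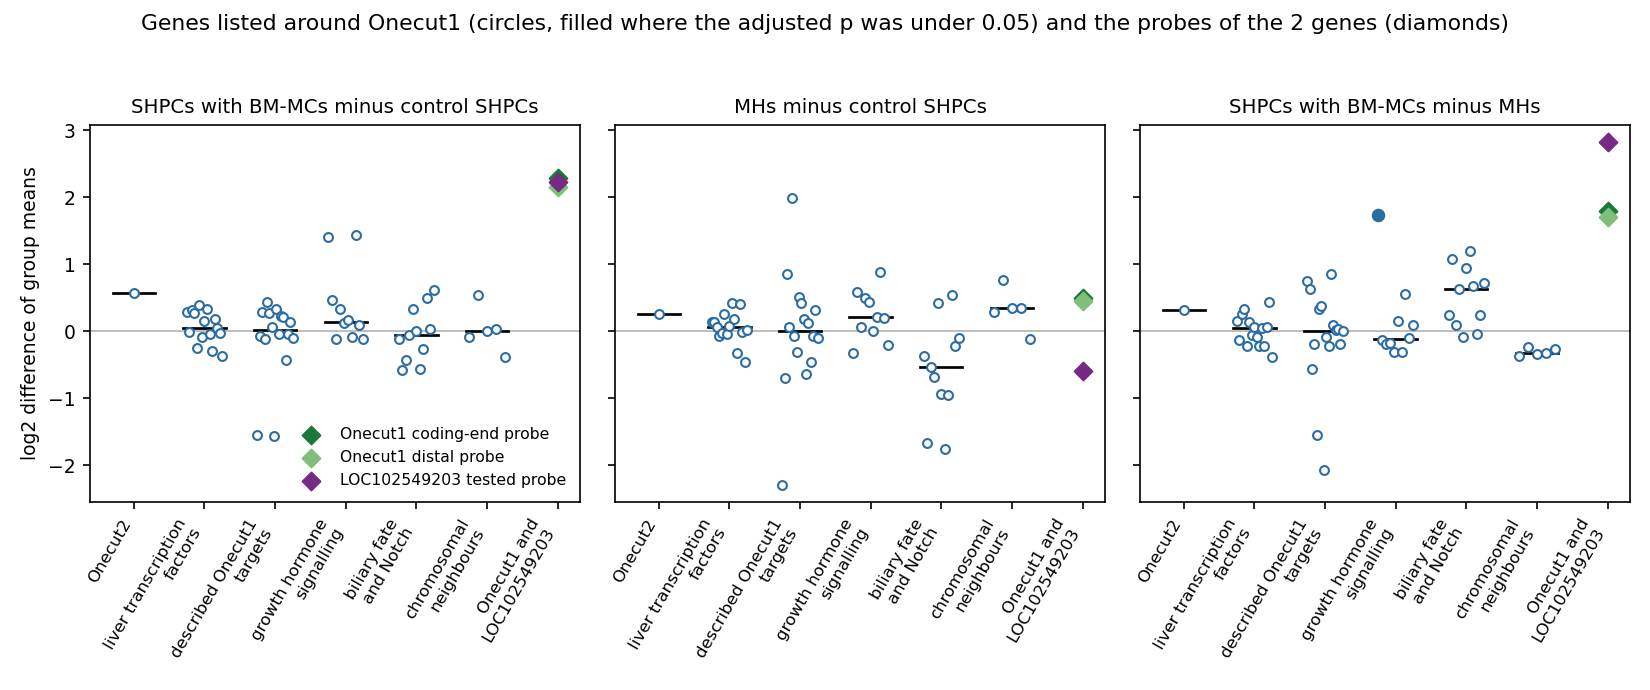
Difference of group means (log2) of each tested gene of the lists around Onecut1 in the 3 comparisons, with the 3 probes of the 2 selected genes as diamonds. Circles are genes, filled where the adjusted p was under 0.05, and bars are list medians. The diamonds lie above every circle in the first panel, and the filled circle in the third is Cish at 1.73.

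Markers of other cell types are given for the same samples, as summed levels in units of each array's 75th percentile. The 5 tested of 6 cholangiocyte markers summed to 0.29 to 0.35 in MHs, 0.42 to 0.46 in control SHPCs and 0.42 to 0.54 with BM-MCs, and 1 of the 5 was higher with BM-MCs than in controls. The 5 BM-MC markers, which include Thy1, summed to 7.31 to 8.70, 6.76 to 8.25 and 6.55 to 7.49 in the same order of groups, and 1 of 5 was higher with BM-MCs. Itgb1 made up most of this sum, at a mean log2 level of 2.66 in controls, where Thy1 was at -2.40. The 5 Kupffer cell markers summed to 41.1 to 48.9 in MHs, 22.9 to 33.6 in controls and 29.4 to 42.2 with BM-MCs, and 4 of the 5 were higher with BM-MCs than in controls. Clec4f made up most of that sum, at a mean log2 level of 4.55 in controls, where Cd68 was at 1.36. The 6 stellate cell markers summed to 5.84 to 5.99, 4.36 to 4.72 and 4.07 to 6.44, and 5 of 6 were higher with BM-MCs. The 5 endothelial markers summed to 16.5 to 19.8 in MHs, 15.9 to 17.0 in controls and 17.1 to 18.3 with BM-MCs, and 3 of 5 were higher with BM-MCs. Only the endothelial and granulocyte sums did not overlap between SHPCs with and without BM-MCs, and the 3 granulocyte markers, all lower with BM-MCs, summed to 0.39 to 1.51 in MHs, 1.13 to 1.57 in controls and 0.36 to 0.48 with BM-MCs. The part of these cells in the levels of Onecut1 and LOC102549203 was not tested.

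Profiles over the 8 samples were set against those of all other tested probes by the mean absolute difference of log2 levels, each centred on its own mean. The distal Onecut1 probe was the nearest of 22968 probes to the coding-end probe, at a distance of 0.11, and the tested LOC102549203 probe ranked 16 at 0.40, while the median probe was at 0.99. These probes were selected for being higher with BM-MCs in the same samples, so part of their nearness was fixed beforehand. The 10 named genes nearest to the coding-end probe were LOC103693962, Chrne, Slc25a30, Tp53inp1, Syde1, LOC103692424, LOC102551251, Jun, LOC102551831 and LOC103695351, at distances from 0.23 to 0.40. Among them are Slc25a30, a mitochondrial carrier, Tp53inp1, a p53-induced stress protein, and Jun, a component of AP-1. Their BM-MC samples all lay above the controls, as for 13.0% of all probes, which likeness to a selected probe largely fixed. Of the 10, LOC103693962, Chrne, Syde1 and LOC102551831 were not well above background in the 2 controls with complete marks. Seen from LOC102549203, the coding-end and distal Onecut1 probes ranked 4 and 6, at 0.40 and 0.41, but 80 and 39 with standardised profiles.

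The 10 named genes nearest to LOC102549203 were Nxph2, Cep63, LOC102549967, Man1a1, Luc7l, Cish, Cdan1, Or7g34, Slc25a15 and Dact1, at distances from 0.37 to 0.45. Those with a signal well above background on all 7 arrays with complete marks were LOC102549967, Cish and Dact1, and 6 of the others had one on 3 arrays, those of the BM-MC samples. These 6 entered the comparison through the group in which they were high, and the filter thus fixed part of their likeness. The 8 points of a profile fall into 3 groups, so likeness rests mostly on group means. With profiles also divided by their SD, 2 of the 10 names for Onecut1 and 3 of the 10 for LOC102549203 were the same, and LOC102549203 ranked 69 among the probes nearest to Onecut1.

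**Figure D5:**
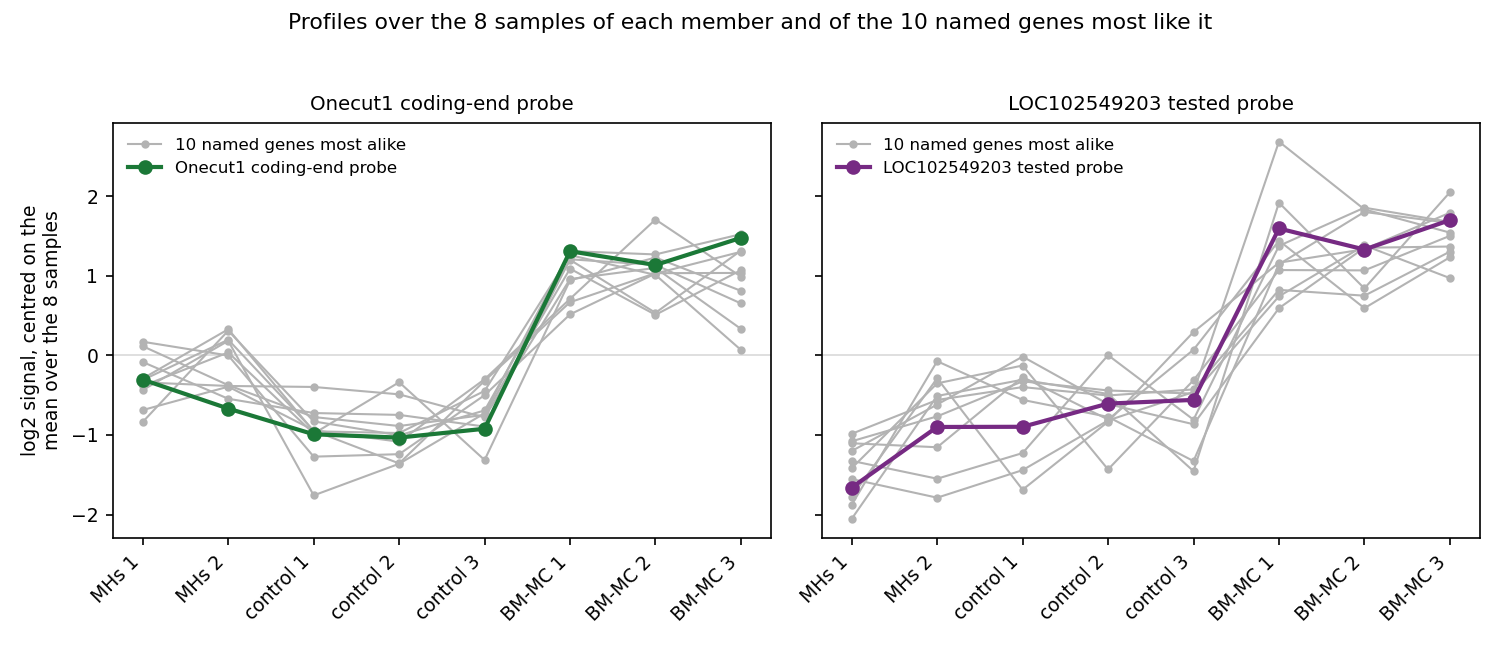
Profiles over the 8 samples of the Onecut1 coding-end probe and the LOC102549203 tested probe (coloured) and of the 10 named genes most like each (grey), as log2 signal centred on the mean over the samples. Lines join the points of 1 gene and replicates have no order. Onecut1 is lowest in the controls and LOC102549203 in MH replicate 1.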

How the data were processed

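RNA of cells captured by LMD was labelled with Cy3 and hybridised to 1-colour Agilent rat arrays. The authors deposited intensities that Agilent Feature Extraction 10.7, named in the submitters' processing notes, had corrected for background without scaling arrays to each other. The deposited p-value of each spot against background, made by the same software, was not used for calls. The methods name Student's t-test for group comparisons.

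Each signal was divided by its array's 75th percentile and taken as log2. Outlier spots were dropped and a probe's spots averaged. A probe entered the tests if 3 or more of the 7 fully marked arrays had it well above background. Tests used limma 3.58.1 in R 4.3.3, and p-values were adjusted after Benjamini and Hochberg over all tested probes at a threshold of 0.05. The 6 SHPC samples entered the first comparison and all 8 samples the others. The script was tested on simulated data. The number of arrays limits the precision. Probes were named through RefSeq for 21102 by accession, 6691 by symbol and 424 by synonym, 7635 kept the file's name, and 9746 of 45598 had none.

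The 2 genes and the lists were chosen with earlier results of these data known. Named genes were every probe of the 2 genes, Onecut2 and Onecut3, list genes past the threshold, otherwise the 3 with the lowest unadjusted p per list, the 5 nearest genes with a probe on either side, and the 10 most alike profiles. Others named for their role were chosen after their values were seen. A gene is given by its brightest tested probe. Alternatives covered scaling, background, the filter, floor and outlier spots, samples in the fit, variance model, the methods' t-test, replicate and slide blocks, and each replicate left out. The values of 1 listed gene that this rule names are not reported here.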

Additional observations from a re-analysis of the deposited data

How the results depend on the processing

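Of 129 alternatives to the 9 differences of the 3 tested probes, 129 kept the sign and 121 moved the value by less than 1 SD. Scaling to the median of each array moved every difference between SHPCs with and without BM-MCs by -0.19, and gave 2.10 at the coding-end probe, 1.97 at the distal probe and 2.04 for LOC102549203, and 1.51 for the distal probe against MHs. Normexp with quantile normalization on 7 arrays gave 1.98 for the distal probe with BM-MCs and 0.38 in MHs, where no scaling gave 0.54. With each replicate left out, the coding-end probe ran from 2.20 to 2.38 with BM-MCs, from 0.31 to 0.68 for MHs and from 1.61 to 1.98 for BM-MCs against MHs, the distal probe from 2.03 to 2.26, 0.41 to 0.50 and 1.58 to 1.81, and LOC102549203 from 2.12 to 2.33, -0.97 to -0.21 and 2.44 to 3.20.

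Same-numbered control and BM-MC samples deviated together with correlations of 0.13, 0.08 and 0.17, not all over 0.1. Those of differently numbered samples were not set beside them, so whether the numbers pair samples cannot be told. With the replicate block the BM-MC differences stayed at 2.29, 2.16 and 2.23, the distal probe gave 0.52 in MHs, and the list count against MHs went from 1 to 0.

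List counts between SHPCs with and without BM-MCs went from 0 to 1 without scaling, with an intensity trend and without control replicate 3 (range 0 to 1), each time Cish, and to 9 by the methods' t-test, unadjusted. In MHs against control SHPCs the count went from 0 to 1 without scaling, with the floor, with probes well above background on every array (A1bg in these) and with the fit limited to the groups compared (Cyp7a1), to 3 with the trend and to 9 by the unadjusted t-test. It stayed at 0 with each control replicate left out, and no BM-MC replicate was left out for this count. Against MHs the count of 1 fell to 0 with quantile normalization, normexp, no filter or the fit limited to the groups compared. It was also 0 by the adjusted t-test and when slide set served as a block, an alternative chosen after seeing the data. Leaving out BM-MC replicate 2 gave 0 as well (range 0 to 1). Without control replicate 1 or 2, 0 of all tested probes were called in this comparison, so that the count was 0 there too. By the unadjusted t-test the count was 3. Of 20 names of most alike profiles, 5 remained with standardised profiles. The cause of these changes was not tested.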
